A study of Mus musculus with 18 samples.

Results

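Genomic imprinting is the expression of a gene from the maternal or the paternal copy alone, and 10 imprinted genes, Peg3, Peg10, Mest, Plagl1, Snrpn, Impact, Nnat, Grb10, Cdkn1c and Phlda2, are described here in mouse pluripotent stem cells kept in different media. The genes were taken by name, with earlier results of these data known, and they are 10 of the 55471 genes listed for each library. FPKM, the number of fragments scaled to transcript length and to the mapped fragments of the library, was given for all 10 in all 18 libraries. RNA-Seq was performed on embryonic stem cells (ESCs) and induced pluripotent stem cells (iPSCs) to compare cells kept by expression of the Yamanaka factors with cells kept by small molecules and LIF.

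The OSKM-ESCs were ESCs moved from 2iL (2 inhibitors, PD0325901 and CHIR99021, with LIF) to N2B27 with doxycycline (DOX), and they were collected 18, 25 and 38 days later in 2 cultures each. The 2iL-ESCs stayed in 2iL and were collected on the same days, also in 2 cultures each. All ESC libraries came from a single line that carried the Tet-On-OSKM alleles, an inducible polycistronic Oct4, Sox2, Klf4 and Myc transgene in the Col1a1 locus and the M2rtTA trans-activator in the Rosa26 locus, together with an Oct4-GFP reporter. Its strain was given as (C57BL/6 x 129S4/SvJae)F1 crossed with (CBA/CaJ X C57BL/6J)F2. The iPSCs were made from Tet-On-OSKM mouse embryonic fibroblasts (MEFs) of the strain (C57BL/6 x 129S4/SvJae)F1. OSKM-iPSC clones 1 (passage 7) and 3 (passage 6) were reprogrammed and kept in N2B27 with DOX. 2iL-iPSC clones 3 (passage 2) and 6 (passage 3) were reprogrammed in 2iL with DOX. For their later culture the sample labels name N2B27 with DOX, but the series description and the methods name 2iL. The methods state that DOX was taken away after the clones were picked. The clones were grouped by their titles. The 2 MEF libraries were of passage 4 and of the same strain as the iPSCs. The ESCs and iPSCs were grown on mitomycin-treated MEF feeder cells, so every pluripotent library can hold some fibroblast RNA. Passage differed between the iPSC groups, and passage and medium cannot be told apart. By the methods, the media differed both in DOX, which turns the transgene on, and in the inhibitors and LIF. These parts of a difference between media cannot be told apart. Nothing states that cultures or clones were independent, so p-values measure the spread between these libraries, which may be technical.

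Many imprinted loci are marked in the germ line by DNA methylation on the copy from 1 parent, and such a mark is kept through the demethylation of the early embryo by the zinc finger protein ZFP57 with TRIM28 and the maintenance methyltransferase DNMT1. Many imprinted genes act on fetal and placental growth, those expressed from the father's copy often promoting it and those expressed from the mother's copy often restraining it. Peg3, Peg10, Mest, Plagl1, Snrpn, Impact and Nnat are expressed from the paternal copy. Grb10, Cdkn1c and Phlda2 are expressed from the maternal copy in most tissues. RNA-Seq without allele information, as used here, gives the sum of both copies and not which copy was used.

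The number of genes with an FPKM over 1 ranged from 11308 to 12099 over the 18 libraries, and the deposited coverage per unit of FPKM ranged from 5.01 to 6.07. Depth in reads is unknown. The 8 pluripotent cell markers were all above 0 in the 16 ESC and iPSC libraries, and in the MEF libraries 5 and 7 of them were listed at 0. The 14 fibroblast markers summed to 1.45% to 2.41% of the MEF mean in the OSKM-ESCs and to 0.318% to 0.416% in the 2iL-ESCs, without overlap. They summed to 6.38% in OSKM-iPSC clone 1, to 0.332% in OSKM-iPSC clone 3 and to 0.198% and 0.306% in the 2iL-iPSC clones. Lum and Prrx1 were at 0 in OSKM-iPSC clone 3, whereas in clone 1 none of the 14 was at 0. Without any filter on low values, the mean of all 14 fibroblast markers was higher in OSKM-ESCs than in 2iL-ESCs, and 12 of them did not overlap. By limma, 10 of the 11 tested (an FPKM over 1 in at least 1 library) were higher and none lower (11 higher and none lower at an unadjusted p under 0.05), but 6 of these 10 passed the filter only through the OSKM-ESCs, where they were high, so the filter fixed part of this count. In the iPSCs limma called none of 12, also at an unadjusted p under 0.05, with a median log2 difference of 1.34, and 10 of the 12 passed the filter only through OSKM-iPSCs. When OSKM-iPSC clone 3 was left out 11 were called higher, with clone 1 alone set against the spread of the 2iL-iPSCs. Of the 8 pluripotent cell markers 1 was higher and 5 were lower in OSKM-ESCs, and in OSKM-iPSCs 4 were lower. Pou5f1 (Oct4) and Sox2 are among the 8 and are also carried by the transgene, so their FPKM in cells with DOX can include transgene reads. Among all genes tested, limma called 29.5% higher and 24.4% lower in OSKM-ESCs, and 5% and 2.96% in OSKM-iPSCs (adjusted p under 0.05). The fibroblast level thus moved with the medium and, in the iPSCs, with 1 clone, and the members' levels in MEFs are given with the results.

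**Figure D1:**
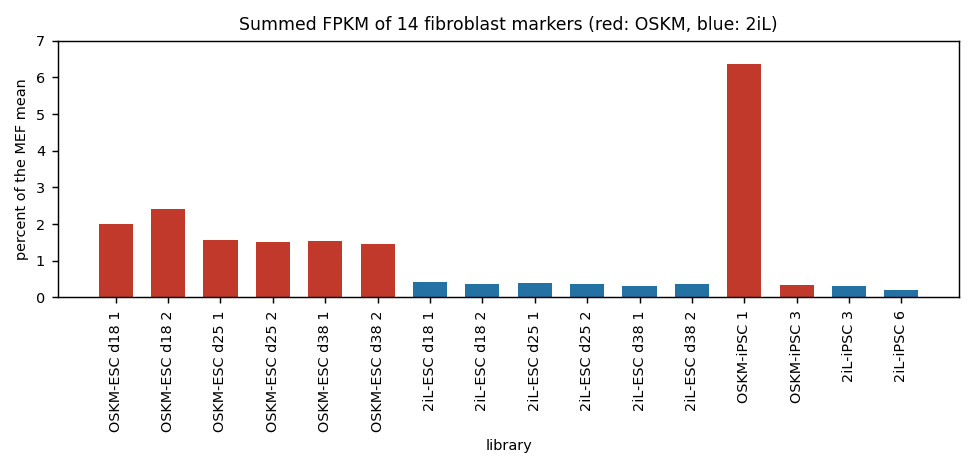
Summed FPKM of 14 fibroblast markers in each ESC and iPSC library, as a percent of the mean sum in the 2 MEF libraries (vertical axis, from 0), with red bars for OSKM and blue bars for 2iL libraries. OSKM-iPSC clone 1 stood highest at 6.38%, the 6 OSKM-ESC libraries lay at 1.45% to 2.41%, and the other libraries were at 0.416% or below.

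Promoter sequences are shown for Nnat, Grb10 and Plagl1. In the ESCs over all days Nnat and Grb10 had the widest log2 difference between media among the paternally and the maternally expressed members with a sequence at hand. Plagl1 was the member that moved the other way. The RefSeq promoter table (GRCm38.p6, 250 bases before to 50 bases after a start site) held windows for 7 of the 10 members, and Peg10, Cdkn1c and Impact were not among them. Capitals mark the letters GCGGCA, the reverse complement of TGCCGC, the core sequence that ZFP57 binds when methylated. The Nnat window is chr2:157559828-157560127 on the plus strand, the Grb10 window chr11:12037371-12037670 on the minus strand and the Plagl1 window chr10:13090582-13090881 on the plus strand, each written 5′ to 3′ along the gene.
Nnat: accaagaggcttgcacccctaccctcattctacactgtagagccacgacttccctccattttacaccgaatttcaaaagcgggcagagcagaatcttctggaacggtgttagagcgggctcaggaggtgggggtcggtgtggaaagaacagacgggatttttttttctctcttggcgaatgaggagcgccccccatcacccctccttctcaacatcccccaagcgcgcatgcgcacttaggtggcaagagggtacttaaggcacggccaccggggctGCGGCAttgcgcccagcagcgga
Grb10: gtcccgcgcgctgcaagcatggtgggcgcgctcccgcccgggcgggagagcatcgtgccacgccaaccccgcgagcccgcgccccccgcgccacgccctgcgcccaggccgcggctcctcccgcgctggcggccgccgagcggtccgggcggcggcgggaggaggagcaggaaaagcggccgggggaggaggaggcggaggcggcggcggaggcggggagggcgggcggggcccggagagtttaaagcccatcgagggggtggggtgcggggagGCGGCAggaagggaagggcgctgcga
Plagl1: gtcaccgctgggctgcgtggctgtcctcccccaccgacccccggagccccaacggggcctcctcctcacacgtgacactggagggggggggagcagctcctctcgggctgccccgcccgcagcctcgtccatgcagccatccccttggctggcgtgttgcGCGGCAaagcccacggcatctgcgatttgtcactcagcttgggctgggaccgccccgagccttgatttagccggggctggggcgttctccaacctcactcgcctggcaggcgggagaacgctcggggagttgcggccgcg
TGCCGC, searched on both strands, was found in a window of 5 of the 7 members, namely Nnat, Mest, Snrpn, Plagl1 and Grb10. It was in 6 of the 13 windows of the 7 members. Of these 6, 2 are Mest windows that start at chr6:30737800 and chr6:30737803 and hold the same 2 matches. TGCCGC itself holds a CpG, and the shares below were not matched for CpG content. Among all 32851 windows 11.6% held it, and 13.1% of the 27025 genes had it in at least 1 window. The Grb10 window shown held 45 CpG sites, the Plagl1 window 26 and the Nnat window 17, against a median of 7 over all windows. Phlda2, with 26 CpG sites, and Peg3, with 13, held no match in their windows. A match is a run of letters and was not shown to be bound, and methylation was not measured.

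Over all days, 8 of the 10 members were higher in OSKM-ESCs than in 2iL-ESCs, and 1, Plagl1, was lower (limma, adjusted p under 0.05 by the Benjamini-Hochberg method over the 14016 genes tested). Among all genes tested, 29.5% were higher and 24.4% lower by the same rule. The median log2 difference was 1.21 over the 10 members and 0.03 over all genes. The log2 differences here and below are of FPKM + 1, OSKM minus 2iL. Snrpn was the member not called. All 10 members passed the filter, an FPKM over 1 in at least 1 library, in each comparison. Nnat, Peg10, Grb10, Cdkn1c and Phlda2 did not overlap between the 6 OSKM-ESC and the 6 2iL-ESC libraries, whereas 26.7% of all genes did not. For members whose groups did overlap, an exact 2-sided permutation test of 6 against 6 libraries gave p = 0.0087 for Mest, 0.0108 for Plagl1 and Impact and 0.0541 for Snrpn. It exchanges libraries across days and cultures, and for a gene without overlap it can only give its smallest value, 0.0022, which adds nothing to the lack of overlap. The same 5 members did not overlap between all 8 OSKM and all 8 2iL libraries when the iPSC clones were added, against 16.6% of all genes.

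**Figure D2:**
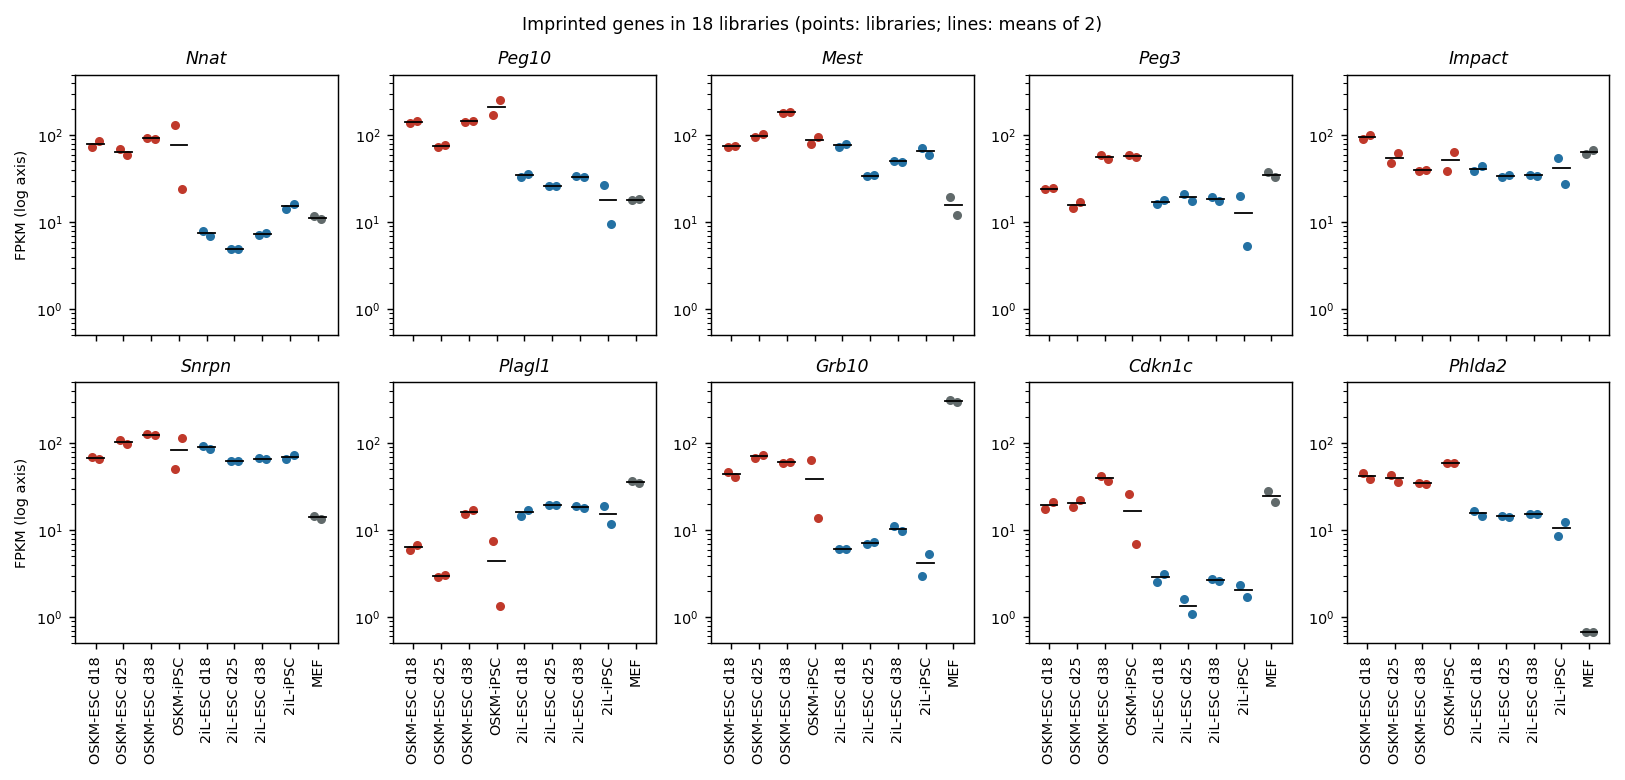
FPKM (log axis) of the 10 genes in each of the 18 libraries, with OSKM libraries in red, 2iL libraries in blue, MEFs in grey and a black line at the mean of the 2 libraries. Nnat, Peg10, Grb10, Cdkn1c and Phlda2 had every red point above every blue point, and Phlda2 was at 0.68 in both MEF libraries while Grb10 was at 299 and 313.6.

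Nnat encodes neuronatin, a small membrane proteolipid of the endoplasmic reticulum found mainly in brain and endocrine cells. Among the members it showed the widest log2 difference between the media in the ESCs over all days. Its FPKM in OSKM-ESCs was 74.2 and 85.5 at day 18, 68.8 and 58.8 at day 25 and 94.3 and 91.0 at day 38. In 2iL-ESCs it was 7.89 and 6.98 at day 18, 4.91 and 4.98 at day 25 and 7.20 and 7.48 at day 38. Every OSKM-ESC value thus lay far above every 2iL-ESC value, and also above the 11.8 and 10.9 of the MEFs. The mean was 78.8 ± 13.8 against 6.57 ± 1.30 (SD, n = 6), a ratio of 12, with a log2 difference of 3.40 (SE 0.07, limma adjusted p = 5.84e-11). Nnat (chr2:157560078-157562522, plus strand) lies inside the span of Blcap on the opposite strand, and the labels do not describe the library kit as strand-specific, so reads of the overlapping parts cannot be assigned by strand. Blcap itself had a log2 difference of 0.07 (SE 0.08, limma adjusted p = 0.52).

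Peg10 encodes a protein derived from a retrotransposon that is required for the placenta, and it was higher in OSKM-ESCs on each day. In OSKM-ESCs its FPKM was 139.9 and 147 at day 18, 74.0 and 76.8 at day 25 and 143.8 and 148 at day 38. In 2iL-ESCs it was 33.3 and 35.9, then 25.8 and 26.0, then 33.9 and 33.2. Day 25 was lowest in both media, and the ranges stayed apart. The log2 difference over all days was 1.87 (SE 0.09, limma adjusted p = 1.31e-08). MEFs had 18.0 and 18.3, less than any ESC library.

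Mest encodes a member of the alpha/beta hydrolase family of mesoderm and placenta, and its difference was not the same on the 3 days. OSKM-ESCs had an FPKM of Mest of 74.0 and 75.6 at day 18, 96.0 and 102.6 at day 25 and 182.3 and 187.6 at day 38. In 2iL-ESCs it was 73.2 and 79.7, then 34.0 and 34.6, then 50.9 and 49.4. The media overlapped at day 18 only, and over all days Mest differed by 1.11 on the log2 scale (SE 0.24, limma adjusted p = 0.0022). It overlaps Copg2 on the opposite strand at its end, and Copg2 had a log2 difference of -0.12 (SE 0.11, limma adjusted p = 0.35).

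Peg3 encodes a large zinc finger protein and is a paternally expressed gene that has been linked to maternal behaviour and growth. Its FPKM in OSKM-ESCs was 24.1 and 24.6 at day 18, 14.5 and 17.2 at day 25 and 59.5 and 53.8 at day 38, and in 2iL-ESCs it stayed between 16.2 and 21.3. The groups overlapped through the OSKM-ESCs of day 25. The log2 difference over all days was 0.60 (SE 0.23, limma adjusted p = 0.0455), and it was not called without the filter on low values (adjusted p = 0.108), with the replicate number as a block (0.0989) or without any 1 of 8 libraries, those of days 18 and 38 (0.0597 to 0.11). The exact permutation test of 6 against 6 gave p = 0.113. In MEFs it was at 37.8 and 33.1.

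Impact encodes a regulator of the translation kinase GCN2. Its FPKM in OSKM-ESCs was 91.7 and 102.1 at day 18, 48.2 and 62.6 at day 25 and 38.8 and 40.4 at day 38, against 33.1 to 44.6 in 2iL-ESCs. The OSKM-ESCs were thus higher at days 18 and 25 and within the range of all 2iL-ESCs at day 38. Over all days the log2 difference was 0.69 (SE 0.14, limma adjusted p = 0.00122). Snrpn, which encodes the spliceosomal protein SmN, was at 68.9 and 66.5, then 110.0 and 99.0, then 127.5 and 123.9 in OSKM-ESCs and at 92.7 and 86.3, then 62.4 and 62.7, then 67.0 and 65.2 in 2iL-ESCs. It was the lower of the media at day 18 and the higher later, and over all days its log2 difference was 0.42 (SE 0.18, limma adjusted p = 0.0642). It was called when any 1 of the 4 libraries of day 18 was left out (limma adjusted p = 0.0189 to 0.0338) and in a single fit of all 9 conditions (0.0261). Snrpn shares its strand and part of its span with Snurf and Gm38393, between which reads can be divided.

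Plagl1 encodes a zinc finger protein that regulates a network of other imprinted genes and can halt the cell cycle, and it was the only member lower in OSKM-ESCs over all days. Its FPKM in OSKM-ESCs was 6.00 and 6.83 at day 18, 2.87 and 3.05 at day 25 and 15.2 and 17.3 at day 38, against 14.7 to 19.6 in the 6 2iL-ESC libraries. The OSKM-ESCs of days 18 and 25 lay below every 2iL-ESC library and those of day 38 did not. The log2 difference was -1.25 (SE 0.27, limma adjusted p = 0.0020). MEFs, at 36.7 and 34.8, were above all pluripotent libraries.

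Grb10 encodes an adaptor that binds and restrains the insulin and IGF1 receptors. Its FPKM in OSKM-ESCs was 47.0 and 41.3 at day 18, 68.2 and 74.2 at day 25 and 59.2 and 61.4 at day 38, and in 2iL-ESCs it was 6.01 and 6.10, then 6.93 and 7.24, then 11.2 and 9.70. The ratio of the means was 7.45 and the log2 difference 2.75 (SE 0.11, limma adjusted p = 3.03e-09). Grb10 was the member highest in MEFs, at 313.6 and 299. The fibroblast marker share of each OSKM-ESC library times the MEF level of Grb10 came to 4.45 to 7.37 FPKM, against measured values of 41.3 to 74.2. The part of other cells in the rest was not tested, and in bulk RNA fewer cells of a type and less RNA per cell cannot be told apart.

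Cdkn1c encodes p57, an inhibitor of cyclin-dependent kinases that restrains growth. In OSKM-ESCs its FPKM was 17.7 and 21.1 at day 18, 18.5 and 22.5 at day 25 and 41.6 and 37.1 at day 38, and in 2iL-ESCs it was 2.56 and 3.16, then 1.62 and 1.10, then 2.74 and 2.62. The 2iL-ESCs were all under 4 FPKM while MEFs, at 27.9 and 21.1, were in the range of the OSKM-ESCs. The log2 difference was 3.01 (SE 0.16, limma adjusted p = 2.86e-08), and the fibroblast share times the MEF level was 0.356 to 0.590 FPKM. Phlda2, a pleckstrin homology protein that limits placental growth, lies 40.5 kb from Cdkn1c (chr7:143458339-143461050 and chr7:143501545-143503150, both on the minus strand) in the imprinted Kcnq1 domain. It was at 45.9 and 38.7, then 43.4 and 35.9, then 35.2 and 33.8 FPKM in OSKM-ESCs and at 14.2 to 16.7 in 2iL-ESCs. The log2 difference of Phlda2 was 1.30 (SE 0.08, limma adjusted p = 7.93e-08), and with 0.68 in both MEF libraries its fibroblast share came to at most 0.016 FPKM.

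**Figure D3:**
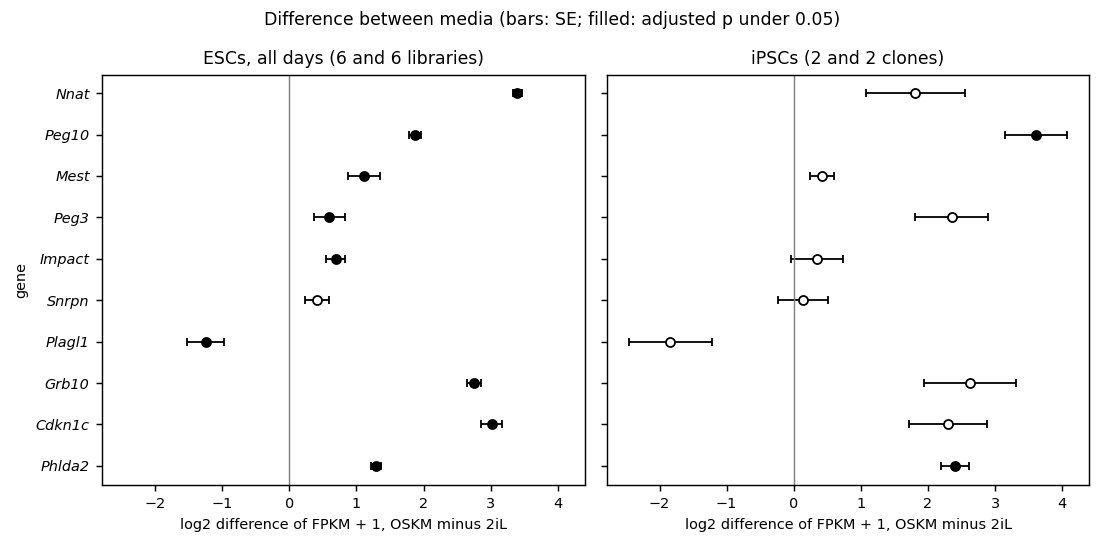
Log2 difference of FPKM + 1 between media for each gene, OSKM minus 2iL, in ESCs over all days and in iPSCs. Bars are SE, filled points have a limma adjusted p under 0.05 and open points do not. Bars were short in the ESCs, at most 0.27, and in the iPSCs they reached 0.73 for Nnat, where the points of Peg10 (3.61) and Phlda2 (2.41) were filled.

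The days were compared next, to ask whether the difference between media was the same after 18, 25 and 38 days. In the single-day comparisons (2 against 2 libraries), 7 members were higher and 2 lower in OSKM-ESCs at day 18, where 25.7% and 17.7% of all genes were, 8 were higher and 1 lower at day 25, against 20.7% and 25.3%, and 9 were higher and none lower at day 38, against 34.6% and 25.2%. At an unadjusted p under 0.05 limma likewise called none lower at day 38, whereas the count was 8 higher and 1 lower with median-ratio scaling and 9 higher and 1 lower with quantile normalization, the lower gene being Plagl1. The test of the interaction of medium and day called 8 of the 10 members, all but Nnat and Phlda2, and 37.9% of all genes. With a single fit of all 9 conditions it called 3 members, Mest, Plagl1 and Snrpn. That fit called 3086 of 15567 genes, where the fit of the ESCs alone called 5319 of 14016. At day 18 a 2-fold change with an unadjusted p under 0.05 was met in the lower direction by 1 member, Plagl1, and by 9.64% of genes. No batch or date was given, so a day and the handling of that day's cultures cannot be told apart.

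Nnat and Phlda2 were higher in OSKM-ESCs on all 3 days, and a change with the day was not called for them. The log2 difference of Nnat was 3.26 (SE 0.13), 3.44 (SE 0.11) and 3.49 (SE 0.05), and that of Phlda2 was 1.38 (SE 0.13), 1.39 (SE 0.12) and 1.12 (SE 0.05), with an adjusted p of 0.379 and 0.301 for the interaction by limma. Grb10 and Cdkn1c stayed high on each day but moved within that range. For Grb10 the values were 2.68, 3.16 and 2.42, and for Cdkn1c they were 2.40, 3.19 and 3.45.

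Mest, Peg3, Snrpn and Plagl1 differed most between days. Mest had log2 differences of -0.03 (SE 0.11) at day 18, 1.51 (SE 0.08) at day 25 and 1.86 (SE 0.04) at day 38 (limma adjusted p for the interaction = 4.06e-06). Snrpn changed sign, from -0.40 (SE 0.11) at day 18 to 0.73 (SE 0.09) and 0.92 (SE 0.04), each called, though the day 18 value was not called when any library of that day was left out (limma adjusted p = 0.0576 to 0.141). Peg3 went from 0.49 (SE 0.11) through -0.27 (SE 0.14, not called) to 1.56 (SE 0.07). Plagl1 had log2 differences of -1.19 and -2.37 at days 18 and 25, both called, and of -0.18 (SE 0.08, limma adjusted p = 0.106) at day 38. Impact moved the opposite way to Mest, with 1.20, 0.68 and 0.19, the last not called without any 1 of the 4 libraries of day 38 (limma adjusted p = 0.0566 to 0.119). At day 25 it was not called without either 2iL-ESC culture (0.0995 and 0.082). At day 18 Peg3 was not called without any 1 of the 4 libraries (0.0537 to 0.0995). Peg10 had log2 differences of 2.02 (SE 0.11), 1.51 (SE 0.08) and 2.09 (SE 0.04). From day 25 to day 38 the difference had a higher value for Peg3, Peg10, Mest, Snrpn, Plagl1, Nnat and Cdkn1c. It had a lower value for Impact, Grb10 and Phlda2, and these single steps were not tested.

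**Figure D4:**
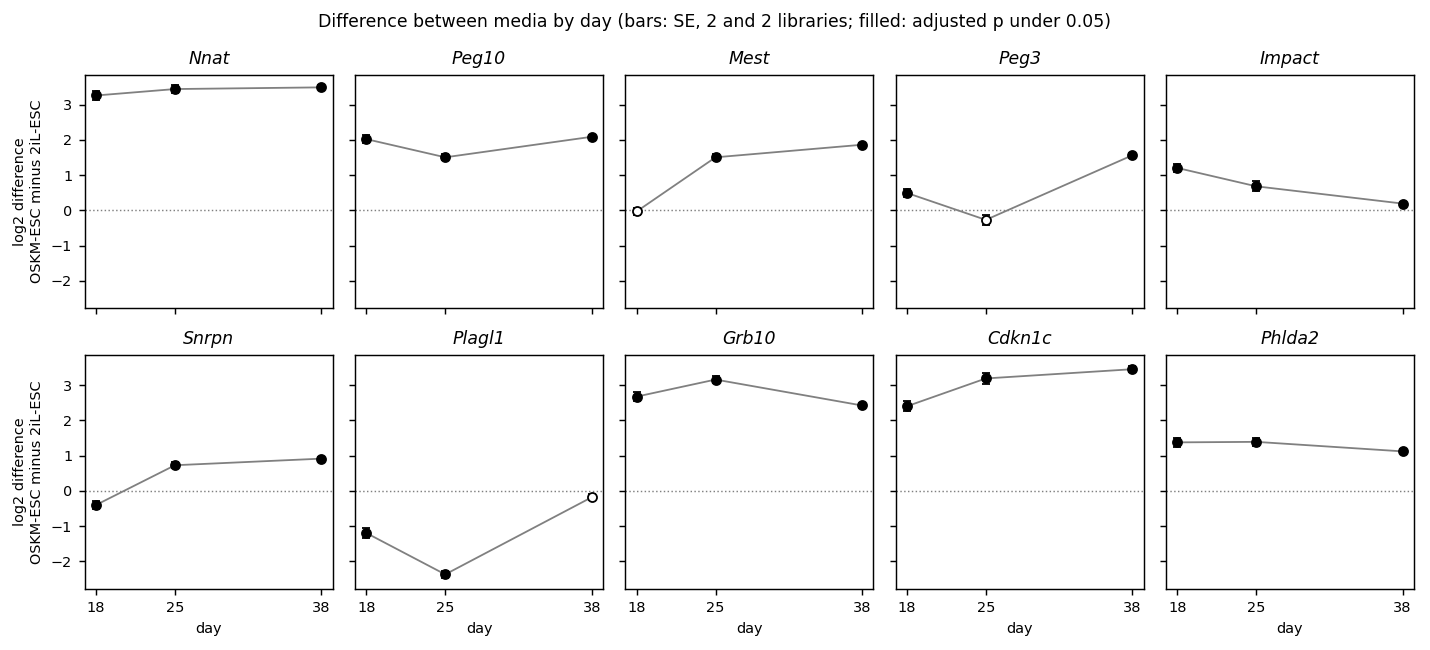
Log2 difference of FPKM + 1, OSKM-ESC minus 2iL-ESC, at days 18, 25 and 38 for each gene. Bars are SE from 2 and 2 libraries, filled points have a limma adjusted p under 0.05 and open points do not. Nnat stayed between 3.26 and 3.49, Mest went from -0.03 to 1.86, and Plagl1 was at -2.37 at day 25 and -0.18 at day 38.

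Within each medium, the days differed for 9 members in OSKM-ESCs (all but Phlda2) and for 7 in 2iL-ESCs (all but Peg3, Plagl1 and Phlda2) by limma's F test, against 38.6% and 50.8% of all genes. In a single fit of all 9 conditions the counts were 6 and 1, with Nnat, Grb10 and Cdkn1c not called in OSKM-ESCs (limma adjusted p = 0.68, 0.481 and 0.119) and Mest alone called in 2iL-ESCs. That fit called 4122 of 15567 genes between days in 2iL-ESCs, where the fit of these libraries alone called 6465 of 12726. Its share of all genes in OSKM-ESCs is not given. With a 2-fold change and an unadjusted p under 0.05 the counts of members were 5 and 2, against 18.8% and 15.9% of all genes. The largest gap between days in OSKM-ESCs was 2.12 on the log2 scale for Plagl1, followed by 1.78 for Peg3, 1.29 for Mest and 1.27 for Impact. In 2iL-ESCs it was 1.13 for Mest and at most 0.72 for the other members. The call of Nnat in OSKM-ESCs (limma adjusted p = 0.0302) was lost without any 1 of 3 libraries, culture 2 of day 25 or either culture of day 38 (0.0715 to 0.15). Those of Impact (0.0477) and Cdkn1c (0.0148) in 2iL-ESCs were lost without the filter on low values (0.118 and 0.064). Impact was also not called without any 1 of 5 libraries of 2iL-ESCs (0.0904 to 0.134), all but culture 1 of day 18, and Cdkn1c without culture 2 of day 25 (0.0797), while Plagl1 was called in 2iL-ESCs without culture 2 of day 18 (0.0218).

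In the iPSCs, with 2 clones in each group, Peg10 and Phlda2 were higher in OSKM-iPSCs (limma, adjusted p under 0.05), where 5% of all 13653 genes were, and no member was lower, where 2.96% of genes were. At an unadjusted p under 0.05 limma gave 5 members higher (Peg3, Peg10, Grb10, Cdkn1c and Phlda2) and 1, Plagl1, lower. The same 6 members passed a cutoff of an unadjusted p under 0.05 with a 2-fold change of mean FPKM, as did 11.5% of all genes in the higher and 6.33% in the lower direction. The 8 members other than Snrpn and Impact did not overlap between the groups, as 62.6% of all genes did not. The median log2 difference was 2.05 over the 10 members and 0.09 over all genes. Median-ratio scaling and quantile normalization called 555 and 422 genes higher and 517 and 440 lower, against 683 and 404 without, and gave the same counts of 2 and 0 for the members. Without the filter on low values no gene was called, and Peg10 and Phlda2 had adjusted p-values of 0.12 and 0.115.

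Peg10 was at 172 and 253.6 FPKM in OSKM-iPSC clones 1 and 3 and at 26.7 and 9.66 in 2iL-iPSC clones 3 and 6. The log2 difference was 3.61 (SE 0.47, limma adjusted p = 0.0189). Phlda2 was at 59.4 and 60.0 in the OSKM-iPSCs and at 8.66 and 12.6 in the 2iL-iPSCs, with a log2 difference of 2.41 (SE 0.21, limma adjusted p = 0.00984). Peg3 was at 59.8 and 56.7 against 20.3 and 5.33, a log2 difference of 2.35 that was not called (SE 0.55, limma adjusted p = 0.0588). The spread of Peg3 came from the 2iL-iPSCs, in which clone 6 was low in Peg3, Peg10 and Impact. The log2 difference of Phlda2 stayed between 2.16 and 2.65 and that of Peg10 between 2.92 and 4.30 whichever clone was left out. Leaving out a clone leaves 1 clone in its group, which is assumed to vary like the 2 clones of the other group, and 1 residual degree of freedom a gene. Without either 2iL-iPSC clone limma called no gene of the whole table, and Peg10 and Phlda2 each had an adjusted p of 0.318 without clone 3 and 0.323 without clone 6, so the loss of their calls there is not particular to them. With the spread taken from the 2iL-iPSCs, Nnat, Grb10, Cdkn1c and Phlda2 were called without OSKM-iPSC clone 3 and Peg10 was not (0.0621), and Peg10, Phlda2 and, in the lower direction, Plagl1 were called without clone 1.

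Nnat, Grb10, Cdkn1c, Plagl1 and Snrpn differed widely between the OSKM-iPSC clones. Nnat was at 129.8 FPKM in clone 1 and at 24.0 in clone 3, Grb10 at 63.8 and 13.9, and Cdkn1c at 26.4 and 6.93. Clone 3 was thus much lower than clone 1, but in each of these genes both clones lay above both 2iL-iPSC clones, which were at 14.3 and 16.3, 2.97 and 5.37, and 2.37 and 1.69. Plagl1 was at 7.59 in clone 1 and 1.36 in clone 3, below the 19.2 and 11.8 of the 2iL-iPSCs. Snrpn ran the other way, with 50.6 in clone 1 and 115.3 in clone 3 on either side of the 2iL-iPSCs (66.8 and 72.4), and so did Impact, with 38.9 and 64.7 beside 55.4 and 27.8. Mest was at 80.5 and 95.1 against 72.2 and 58.6, a log2 difference of 0.42 (SE 0.17, limma adjusted p = 0.18).

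Clone 1 was also the clone with the higher fibroblast markers (6.38% of the MEF sum, against 0.332% in clone 3), and the part of fibroblast RNA in these values was not tested beyond the following. The share times the MEF level came to 19.5 FPKM for Grb10 in clone 1, against 63.8 measured, to 2.28 for Plagl1, against 7.59, to 1.56 for Cdkn1c, against 26.4, and to 0.724 for Nnat, against 129.8. For Peg3, Peg10, Mest and Phlda2 it was 2.26, 1.16, 1.01 and 0.043. In clone 3, in which the fibroblast share was near that of the 2iL clones, the log2 differences from the 2iL-iPSCs were 3.89 for Peg10, 2.41 for Phlda2, 2.31 for Peg3, 1.56 for Grb10, 1.40 for Cdkn1c, 0.62 for Nnat and -2.77 for Plagl1. With clone 1 in its place, they were 3.33, 2.40, 2.39, 3.69, 3.19, 3.01 and -0.91. The signs were the same in the 2 clones for these 7 members and for Mest, and not for Snrpn (0.72 and -0.45) and Impact (0.70 and -0.02). Both clones were set against the same 2iL-iPSCs, so a gene whose groups did not overlap was bound to give the same sign. The 8 members with the same sign were those without overlap, as 62.6% of all genes were.

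The difference between media in the iPSCs was compared with that in the ESCs in a fit of the 16 pluripotent libraries, and it differed for 4 members, against 14.2% of all genes. It was larger in iPSCs for Peg3 by 1.75 (SE 0.44, limma adjusted p = 0.0241, and 0.0624 without the filter on low values). For Peg10 it was larger by 1.74 (SE 0.37, limma adjusted p = 0.0111) and for Phlda2 by 1.11 (SE 0.17, 0.00245). For Mest the contrast was -0.69 (SE 0.12, 0.00472). The ESC side is the mean over the 3 days. The iPSC difference of Mest (0.42) lay above that of ESCs at day 18 (-0.03) and below those at days 25 and 38 (1.51 and 1.86). Without 2iL-iPSC clone 6 the contrasts of Peg3, Peg10, Phlda2 and Mest were 0.88, 1.05, 1.36 and -0.84. Without 2iL-iPSC clone 3 they were 2.63, 2.43, 0.86 and -0.54. For Nnat the contrast was -1.58 (SE 0.59, limma adjusted p = 0.0978). Without OSKM-iPSC clone 1 the contrast was -2.78 for Nnat, -1.19 for Grb10, -1.62 for Cdkn1c and -1.52 for Plagl1. Without OSKM-iPSC clone 3 it was -0.39, 0.93, 0.17 and 0.34. Strain, passage and days in the medium differ between the cell types and cannot be told apart from them.

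MEFs, the cells from which the iPSCs were made, served as a reference, and both comparisons use the same 2 MEF libraries. Against MEFs, 5 members were higher in OSKM-iPSCs (Peg3, Peg10, Mest, Snrpn and Phlda2) and 2 lower (Plagl1 and Grb10) by limma, where 34% of all genes were higher and 26.4% lower. In 2iL-iPSCs, 4 were higher (Mest, Snrpn, Nnat and Phlda2) and 4 lower (Peg3, Plagl1, Grb10 and Cdkn1c), where 40.6% and 37.4% of all genes were. Phlda2 passed the filter on low values in both only through the iPSCs, where it was high, so that its call was bound to be upward, and without it the members higher numbered 4 and 3. Median-ratio scaling lowered the median difference of all genes from MEFs by 0.14 in OSKM-iPSCs and changed no call of a member. Without the filter on low values neither Plagl1 nor Grb10 was called in OSKM-iPSCs (limma adjusted p = 0.0557 and 0.0606).

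Mest was at 19.4 and 12.2 FPKM in MEFs and had a log2 difference from them of 2.43 (SE 0.25) in OSKM-iPSCs and 2.01 (SE 0.24) in 2iL-iPSCs. Snrpn, at 14.5 and 13.6 in MEFs, gave 2.37 (SE 0.42) and 2.23 (SE 0.10), so that both genes were higher in both kinds of iPSC. Phlda2, at 0.68 in each MEF library, had a difference of 5.18 (SE 0.12) and 2.77 (SE 0.19), given as a description. Grb10 was lower in both, with -3.31 (SE 0.74) and -5.93 (SE 0.24), as was Plagl1, with -3.03 (SE 0.65) and -1.19 (SE 0.23). Peg3, at 37.8 and 33.1 in MEFs, had 0.70 (SE 0.12, limma adjusted p = 0.00909) in OSKM-iPSCs and -1.65 (SE 0.57, 0.0453) in 2iL-iPSCs. The first call was lost in a single fit of all 9 conditions (0.111) and the second with a pseudocount of 0.1 (0.0592) and without the filter on low values (0.141), and both were lost without either MEF library (0.0757 and 0.0955 in OSKM-iPSCs, 0.309 and 0.271 in 2iL-iPSCs). Cdkn1c was lower in 2iL-iPSCs (-3.07, SE 0.19) and had -0.78 (SE 0.64, limma adjusted p = 0.337) in OSKM-iPSCs, and Peg10 was higher in OSKM-iPSCs by 3.46 (SE 0.21) and had -0.15 (SE 0.45, limma adjusted p = 0.767) in 2iL-iPSCs. In OSKM-iPSCs Nnat had 2.21 (SE 0.83, limma adjusted p = 0.0798) and was called higher without clone 1 (1.02) and without clone 3 (3.41), Cdkn1c was called lower without clone 1 (-1.67), and Impact, at 61.2 and 67.0 in MEFs, was called lower without clone 3 (-0.71). Nnat in 2iL-iPSCs had 0.40 (SE 0.11, limma adjusted p = 0.0239) and was not called without clone 6 (0.0791) or without either MEF library (0.117 and 0.169), and Mest was not called there without clone 3 (0.056). Without either MEF library limma called no gene in the comparison with OSKM-iPSCs, and in the comparison with 2iL-iPSCs it then called 2 members lower, Grb10 and Cdkn1c. Without 2iL-iPSC clone 3 it called 6 lower, with Peg10 (-0.84) and Impact (-1.18) added, and without clone 6 Peg10 was higher (0.53, limma adjusted p = 0.0149).

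The order of the genes by FPKM, a level per length, was not the same in the cell types. In MEFs Grb10 (mean 306.3) was highest and Phlda2 (0.68) lowest, with Impact (64.1) next to Grb10 and with Peg3 (35.4) and Plagl1 (35.8) not apart beyond their spread. In OSKM-ESCs Peg10 (121.6 ± 35.9), Mest (119.7 ± 51.8) and Snrpn (99.3 ± 26.5, SD, n = 6) had the highest means over all days and were not apart beyond their spread, and Plagl1 (8.54 ± 6.20) was lowest. The order changed with the day, since Peg10 (mean 143.5) was highest at day 18, Snrpn (104.5) and Mest (99.3) were highest and within their spread at day 25, and Mest (185) was highest at day 38. In 2iL-ESCs Snrpn (72.7 ± 13.3) and Mest (53.6 ± 19.1) led, and Cdkn1c (2.30 ± 0.776) was lowest. Each of the members was detected above 1 FPKM in all 16 pluripotent libraries.

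The neighbours of the members were examined to see which genes of the same loci moved. Of 29 listed neighbours, 20 were tested in the ESCs, and 8 were higher and 2 lower in OSKM-ESCs by limma, that is 40% and 10% of those tested, beside 29.5% and 24.4% of all genes. Calcr and Magel2 among the 8, and Zfp264 of the 2, passed the filter on low values only through the group where they were high. The median log2 difference of the 20 was 0.28, against 0.03 over all genes. Sgce, which shares its promoter region with Peg10 and is also expressed from the paternal copy, rose by 1.45 (SE 0.28), with FPKM of 6.22 to 26.2 in OSKM-ESCs and 3.01 to 6.16 in 2iL-ESCs. At the same locus Casd1 (0.77) and Pon2 (0.76) were higher, Calcr had 0.59 with at most 1.20 FPKM in OSKM-ESCs and 0.046 in 2iL-ESCs, and Ppp1r9a was not called (0.04, SE 0.13). At the Snrpn locus the paternally expressed Peg12 (0.70) and Ndn (0.63) were higher, and Magel2, paternally expressed too, had 0.87 with at most 1.48 and 0.194 FPKM, whereas Ube3a (0.25) and Mkrn3 (-0.12) were not called. Ddc, the neighbour of Grb10, was lower (-1.38, SE 0.12), with 0.788 to 2.65 FPKM in OSKM-ESCs and 4.91 to 6.90 in 2iL-ESCs. Grb10 and Ddc thus moved in opposite directions. Zfp264, next to Peg3, had a log2 difference of -2.28 (SE 0.10) and was at most 0.222 FPKM in OSKM-ESCs, against 2.86 to 6.16 in 2iL-ESCs, while Usp29 was not called (0.32, SE 0.19). Of the Kcnq1 domain, in which Cdkn1c and Phlda2 lie, Tssc4 was higher (0.53), and Ascl2, Nap1l4, Cd81 and Slc22a18 were not called. In the OSKM-iPSCs Zfp264 was at 0.109 FPKM in 1 clone and 6.38 in the other.

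**Figure D5:**
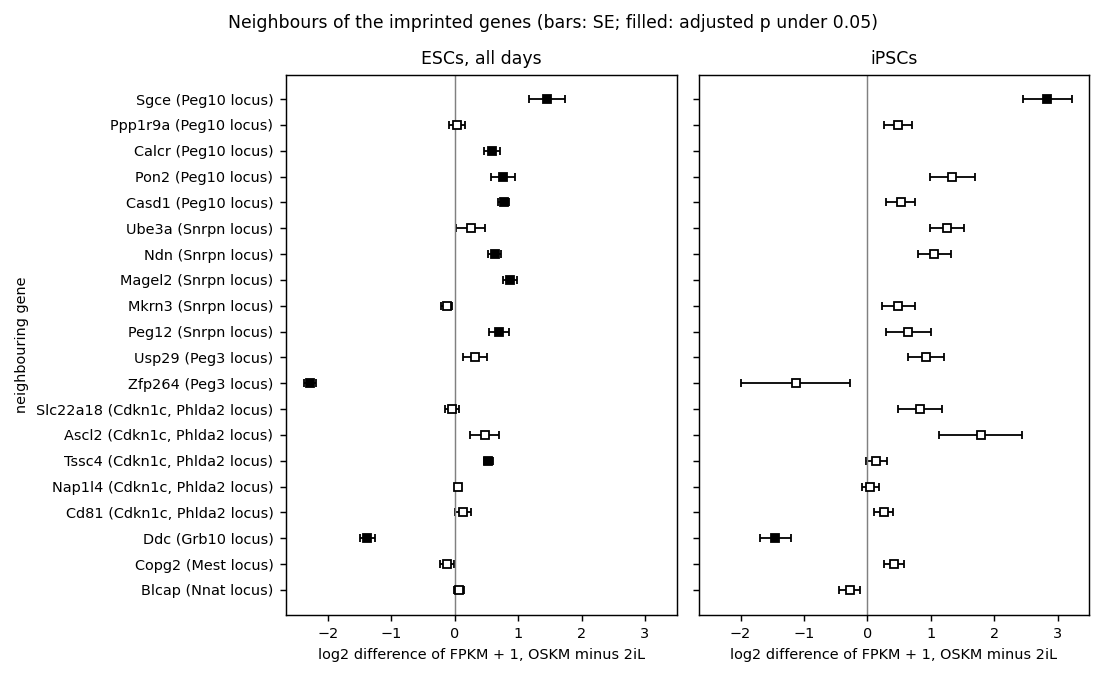
Log2 difference of FPKM + 1, OSKM minus 2iL, for the tested neighbours of the members, labelled by the member's locus, in ESCs over all days and in iPSCs. Bars are SE, filled squares have a limma adjusted p under 0.05 and open squares do not, and a gene with no square was not tested there. Sgce was filled to the right (1.45 and 2.84) and Ddc to the left (-1.38 and -1.45) in both panels.

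In the iPSCs 18 neighbours were tested, and Sgce, by 2.84 (SE 0.38), was higher and Ddc (-1.45, SE 0.24) lower in OSKM-iPSCs by limma (adjusted p = 0.0201 and 0.0308). These are 1 of 18 in each direction, near the 5% and 2.96% of all genes. Sgce was at 10.3 and 18.6 FPKM against 0.618 and 1.67, and Ddc at 2.18 and 2.66 against 7.19 and 9.61, so neither overlapped. Sgce was called also without either OSKM-iPSC clone, and Ddc not without clone 3 (adjusted p = 0.0586). Among 15 other imprinted genes, 13 were tested in ESCs, of which 6 were higher and 1, Zrsr1, lower by limma. These were 46.2% and 7.69% of those tested, beside 29.5% and 24.4% of all genes. Peg13 and Nap1l5, 2 of the 6, were tested only through the OSKM-ESCs, and without them 4 were higher. In the iPSCs 14 were tested, and 3 were higher and none lower (5 and none at an unadjusted p under 0.05). By the adjusted p, 5% of all genes were higher and 2.96% lower there. The log2 difference of Zrsr1 there was -1.03 (SE 0.53, limma adjusted p = 0.258). Inpp5f rose by 1.98 (SE 0.09) in ESCs and 1.96 (SE 0.28) in iPSCs, and Sfmbt2, a Polycomb-related gene of the placenta, by 0.33 (SE 0.09) and 2.42 (SE 0.21). Inpp5f was at 5.16 to 8.42 FPKM in OSKM-ESCs against 0.578 to 1.29 in 2iL-ESCs, without overlap. Without any filter, 4 of the 15 other imprinted genes were higher and 1 was lower in OSKM-ESCs without overlap. Of all genes tested in the ESCs, 26.7% did not overlap.

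Of 6 genes for imprint maintenance, 5 were lower and 1, Zfp445, was higher (0.24, SE 0.06) in OSKM-ESCs by limma. Among all genes tested, 24.4% were lower and 29.5% higher. Dppa3, which protects the maternal genome from demethylation after fertilization, was at 8.20 to 13.8 FPKM in OSKM-ESCs and 35.5 to 46.0 in 2iL-ESCs and fell by 1.81 (SE 0.11). Zfp57 was at 78.1 to 131.6 against 189.4 to 224 and fell by 1.04 (SE 0.12). Uhrf1, Trim28 and Dnmt1 fell by 0.67 (SE 0.07), 0.42 (SE 0.12) and 0.34 (SE 0.06). Zfp57, whose core letters were searched in the promoters above, was also lower in OSKM-iPSCs (-1.34, SE 0.17, limma adjusted p = 0.0175), with 92.3 and 117.8 FPKM against 264 and 268, as was Trim28 (-0.86, SE 0.14, 0.0298). Trim28 was not called there without either OSKM-iPSC clone (0.0814 and 0.0508). The levels of these genes are transcripts, and what they do to the members was not tested.

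Genes whose profile over the 18 libraries was nearest to a member's were named where the root mean square difference of the centred log2 profiles was under 0.5 of the member's own SD. Phlda2 was nearest to Gng3 (0.234) and Esrp1 (0.259), Cdkn1c to Adgrl2 (0.271) and Lmo4 (0.282), and Grb10 to Zyx (0.28) and Fkbp10 (0.286). Snrpn was nearest to Amph (0.282) and Naa10 (0.334), Peg10 to Hmgn5 (0.353) and H2-K1 (0.394), and Mest to Camkv (0.382) and Dab1 (0.402). Nnat was nearest to Myc (0.358), 1 of the 4 transgene factors, and Cntfr (0.358), and Plagl1 to 2510009E07Rik (0.362). No gene was that near to Peg3 or Impact among the 15567 compared.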

How the data were processed

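RNA-Seq of 18 mouse libraries, 2 for each of 9 conditions, was analysed from the deposited gene tables. Per the submitters' processing notes the reads were handled with STAR 2.7.1a, StringTie 2.0 and Cuffdiff 2.2.1 on GRCm38. The FPKM values were made by the authors with StringTie and deposited per library, and the coverage column beside them, the mean read depth over a gene, was used only to compare depth. Depth in reads is unknown, so no counting interval is given. The library kit is not described as strand-specific, and overlapping genes on opposite strands can share reads.

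Left out were 2 genes with failed values, and the FPKM of each of 11 identifiers that had several entries was added up. The 10 imprinted genes were taken by name, and the gene lists (neighbours, other imprinted genes, imprint maintenance, fibroblast and pluripotent cell markers) were fixed lists. The genes and lists were chosen with earlier results of these data known. Differences were tested on log2(FPKM + 1), a scale that understates changes of low genes, with limma 3.58.1 (R 4.3.3, eBayes with trend) on genes exceeding an FPKM of 1 in any of the libraries compared. Each comparison was fitted to its own groups, with day as a factor over all days, and p-values were adjusted by Benjamini-Hochberg over all genes tested, with a threshold of 0.05. Cuffdiff needs the reads and was not run. The study's cutoff (2-fold change, unadjusted p under 0.05), a pseudocount of 0.1, no filter, median-ratio scaling, quantile normalization, a single fit of all 9 conditions, a replicate block and leaving out each library were the alternatives. For each member the mean log2 values of the 6 OSKM-ESC and the 6 2iL-ESC libraries were also compared by an exact permutation test. The naming rule took all 10 genes, the neighbours of their loci, listed genes called in the same direction in ESCs and iPSCs, and the nearest 2 profiles under 0.5 of the SD. Zrsr1, Peg13, Nap1l5, Zfp445, Dppa3, Uhrf1 and Dnmt1 fall outside it and were picked with their values in view. Scripts used Python 3.11.15, numpy 2.4.6, scipy 1.17.1, pandas 2.3.3 and matplotlib 3.10.9 and were tested on simulated data.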

Additional observations from a re-analysis of the deposited data

Results flagged for a closer look

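The difference between media changed with the day, by the interaction test, for 8 genes. The range of the log2 difference over days 18, 25 and 38 was 2.19 for Plagl1, 1.89 for Mest, 1.83 for Peg3, 1.31 for Snrpn, 1.05 for Cdkn1c, 1.01 for Impact, 0.73 for Grb10 and 0.58 for Peg10. Only the values of Mest, Plagl1 and Snrpn were called also in a single fit of all 9 conditions, in which 3086 of 15567 genes were called.

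The difference between media also differed between iPSCs and ESCs for 4 genes. In iPSCs minus the mean over the 3 days in ESCs it was 1.75 for Peg3, 1.74 for Peg10, 1.11 for Phlda2 and -0.69 for Mest on the log2 scale. The value of Peg3 was not called without the filter on low values (limma adjusted p = 0.0624).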

How the results depend on the processing

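Under the study's cutoff the genes called were 1910 higher and 1468 lower over all days, 1885 and 1231 at day 18 (members lower 1), 1376 and 1765 at day 25, 2006 and 1318 at day 38, 2462 between days in OSKM-ESCs (members 5), 2027 in 2iL-ESCs (members 2) and 1564 and 864 in iPSCs (members 5 and 1). For the iPSC against ESC contrast no fold change was applied, and limma called 4446 genes at an unadjusted p under 0.05 alone. The single fit of all 9 conditions gave 1 member lower at day 18, 3 members and 3086 genes for the interaction, 1 member and 4122 genes for the days in 2iL-ESCs, and 6 members higher and 1 lower with 3928 and 2361 genes in iPSCs. Without the filter 3316 genes differed between days in OSKM-ESCs, 0 members and 0 genes in either direction in iPSCs, and 0 members were lower in OSKM-iPSCs than in MEFs. Median-ratio scaling and quantile normalization each gave 1 member lower at day 38, and quantile normalization 422 genes higher in iPSCs. As the median ratio over markers, the fibroblast level was 0.23% of MEF in 2iL-ESCs and 0.0279% in 2iL-iPSCs. The cause of these changes was not tested. A pseudocount of 0.1 kept 109 of 110 values of single members on their side of the threshold, all but Peg3 in 2iL-iPSCs against MEFs (adjusted p = 0.0592). Leaving out 1 library in turn gave 1503 to 2581 genes higher and 1096 to 1621 lower at day 18 (members lower 1), 1258 to 2882 and 1600 to 3910 at day 25, 1972 to 5608 between days in OSKM-ESCs and 4157 to 6170 in 2iL-ESCs, 0 to 1392 and 0 to 684 in iPSCs (members 0 to 4 and 0 to 1), 0 to 5472 and 0 to 4303 in OSKM-iPSCs against MEFs (members 0 to 6 and 0 to 3), 3506 to 5285 genes higher and 2 to 6 members lower in 2iL-iPSCs against MEFs, and 1406 to 3656 genes and 4 to 8 members for the iPSC against ESC contrast. Log2 differences that changed sign ran from -0.089 to 0.031 for Mest at day 18, in iPSCs from -0.45 to 0.72 for Snrpn and -0.14 to 0.83 for Impact (-0.02 without OSKM-iPSC clone 3), against MEFs from -0.71 to 0.013 for Impact and -1.67 to 0.12 for Cdkn1c in OSKM-iPSCs and -0.84 to 0.53 for Peg10 in 2iL-iPSCs, and for the contrast from -1.52 to 0.34 for Plagl1, -0.87 to 0.30 for Snrpn, -0.84 to 0.14 for Impact, -1.19 to 0.93 for Grb10 and -1.62 to 0.17 for Cdkn1c.

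Replicate numbers were shared by the ESC groups, but deviations of same-numbered cultures correlated by 0.131, 0.0904 and 0.012 across genes at days 18, 25 and 38, so the numbers were not taken to pair the samples. With the replicate block, Peg3 over all days (adjusted p = 0.0989), Impact at day 38 (0.0567), Nnat between days in OSKM-ESCs (0.0509) and Impact in 2iL-ESCs (0.0639) were not called, and the other 66 values of members kept their call. Depth in reads is unknown, and a comparison of 2 against 2 clones with 1 left out has 1 residual degree of freedom, so a call lost there does not show that the value rests on that clone.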
